A study of Mus musculus with 8 samples.

Results

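Cytochrome P450 enzymes of families 1, 2 and 3 are the main drug-metabolizing enzymes of the liver, and their genes are described here in fasted female mice with wild-type PLIN5 or with PLIN5 that cannot be phosphorylated at S155. The genes were chosen by name alone, as Cyp, then 1, 2 or 3, a subfamily letter and a number. The rule took 58 of the 45706 genes in the deposited table, in 16 subfamilies named by that letter. Of these 58 genes, 43 passed the filter on low counts and were tested, and 15 did not. The pseudogenes and the families with longer numbers, such as Cyp27, were not taken, nor were Cyp3a41a, Cyp3a41b and Cyp2ab1, whose names have another form.

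P450 enzymes are haem proteins of the endoplasmic reticulum that use molecular oxygen and electrons from NADPH, passed on by P450 oxidoreductase, to add a hydroxyl group or an epoxide to drugs, plant compounds, steroids, bile acids and fatty acids. Most hepatic P450 enzymes of these families are made by hepatocytes near the central vein. Their genes are known to respond to the receptors AHR, CAR and PXR, and several mouse Cyp2 and Cyp3 genes are expressed at different levels in females and males through the pattern of growth hormone release.

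PLIN5 coats lipid droplets in liver, heart and other oxidative tissues, and the study asked whether its phosphorylation by protein kinase A is needed for gene expression in the fasted liver. The S155A mice carry a whole-body knock-in, made by CRISPR editing, that turns the serine codon at this site into one for alanine (S155A), and the edit was checked by sequencing of a founder of the line. All 8 mice were C57BL/6J females, 4 months old and fasted overnight before the liver was taken, 4 of genotype WT and 4 of genotype PLIN5 S155A, with 1 library per mouse. No fed mice are in the series, so the level of a gene without fasting is not measured, and the mouse was edited in every tissue, so no difference can be assigned to the liver.

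The total count was 39709785 to 54540864 per library. Expression is given as CPM, which scales each count to the TMM-adjusted total of its library. The labels name the cell type as hepatocytes, but markers of Kupffer cells (summed level 180.9 to 392.6 CPM), sinusoidal endothelial cells (99.4 to 181.8 CPM) and stellate cells (100.7 to 304.1 CPM) were present in every library beside the 8 hepatocyte markers (99610 to 138000 CPM), so the values are those of whole liver. Plin5 itself was at 253.7, 193.8, 182.5 and 193.7 CPM in WT 1 to 4 and at 457.3, 275.6, 191.8 and 386.4 CPM in S155A 1 to 4, with a log2 fold change of 0.67 (unadjusted p 0.0193 and adjusted p 0.993, edgeR). The knock-in replaces a codon, which gene counts do not show, so the level is no check of the genotype. The labels also carry an animal number, which was under 500 for WT 1, WT 4, S155A 1 and S155A 4 (the low series) and over 500 for WT 2, WT 3, S155A 2 and S155A 3 (the high series); what the numbers stand for is not given. In S155A 3 the 8 markers of lymphocytes and plasma cells summed to 2059 CPM, against 18.6 to 44.6 CPM in the other 7 libraries.

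Many of the genes are close copies of one another, which matters for every value below because a read that fits more than 1 gene had to be divided between them by the counting. They lie mostly in clusters of the mouse genome (GRCm38): 15 Cyp2c genes on chromosome 19, 8 Cyp2d genes on chromosome 15, 8 Cyp2j genes on chromosome 4, 7 Cyp3a genes on chromosome 5, and the Cyp2a, Cyp2b, Cyp2f, Cyp2g, Cyp2s and Cyp2t genes on the proximal part of chromosome 7. Of 199 pairs of genes within a subfamily, 10 were identical at over 95% of their coding bases. The closest were Cyp2a4 and Cyp2a5, identical at 98.5% (23 of 1485 coding bases differ). For this set and the 2 sets below, the stretch of 60 coding bases with the most differences is printed (GENCODE M21). Capitals mark the bases that differ within each set. In Cyp2a4 and Cyp2a5 it was bases 596 to 655, with 4 differences.
Cyp2a4: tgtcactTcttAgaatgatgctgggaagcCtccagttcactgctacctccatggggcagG
Cyp2a5: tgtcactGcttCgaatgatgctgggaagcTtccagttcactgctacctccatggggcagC
Coding bases 1060 to 1119 of Cyp2c67, Cyp2c68 and Cyp2c69 were among the more variable of that set, in which 63 of 1476 bases differ in at least 1 gene.
Cyp2c67: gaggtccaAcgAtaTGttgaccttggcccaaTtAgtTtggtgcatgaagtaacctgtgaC
Cyp2c68: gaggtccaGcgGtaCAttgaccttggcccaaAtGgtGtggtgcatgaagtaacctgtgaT
Cyp2c69: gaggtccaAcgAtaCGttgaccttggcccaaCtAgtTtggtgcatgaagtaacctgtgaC
Coding bases 290 to 349 of Cyp3a25 and Cyp3a59, which differ at 38 of 1512 coding bases, are the last set.
Cyp3a25: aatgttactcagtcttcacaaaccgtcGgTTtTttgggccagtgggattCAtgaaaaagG
Cyp3a59: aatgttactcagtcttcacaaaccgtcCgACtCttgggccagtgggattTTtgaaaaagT

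Windows of 100 bases were taken from the transcript chosen for each gene, and not from its other transcripts. The share that occurs unchanged in another gene was 44.1% for Cyp2c40, 36.3% for Cyp2c69, 23.7% for Cyp2c67, 19.8% for Cyp2c68, 14.8% for Cyp2d10, 14.4% for Cyp2a5 and 11.2% for Cyp2a4. No gene of the 58 reached 50%, and 25 shared no window at all, among them Cyp2f2, Cyp3a13, Cyp2c39, Cyp2j9 and Cyp2c70, whose values are described below. Values of Cyp2c40, Cyp2c67, Cyp2c68, Cyp2c69, Cyp2a4 and Cyp2a5 are therefore uncertain as to which copy the reads came from.

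The P450 genes of the 3 families were expressed over more than 4 orders of magnitude. Together they took 1.71% to 2.29% of the counts of a library (1.91%, 2.17%, 1.85% and 1.9% in WT 1 to 4 and 1.71%, 2.11%, 2.29% and 2% in S155A 1 to 4), and the groups overlapped. In mean CPM, 25 of the 58 genes were above 100 and 3 were above 1000. Per kilobase of transcript, the scale on which genes can be compared with each other, the order began with Cyp2e1 (4314 CPM per kb), which oxidises ethanol, acetone and paracetamol, then Cyp3a11 (803.8), the main PXR target, Cyp2d26 (749.4), Cyp2d10 (518.9) and Cyp2a5 (432.4). The spread between mice separated Cyp2e1 from all other members, but the ranges of Cyp3a11 and Cyp2d26 overlapped, and the range of Cyp2a5 covered those of Cyp3a11, Cyp2d26 and Cyp2d10.

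**Figure D1:**
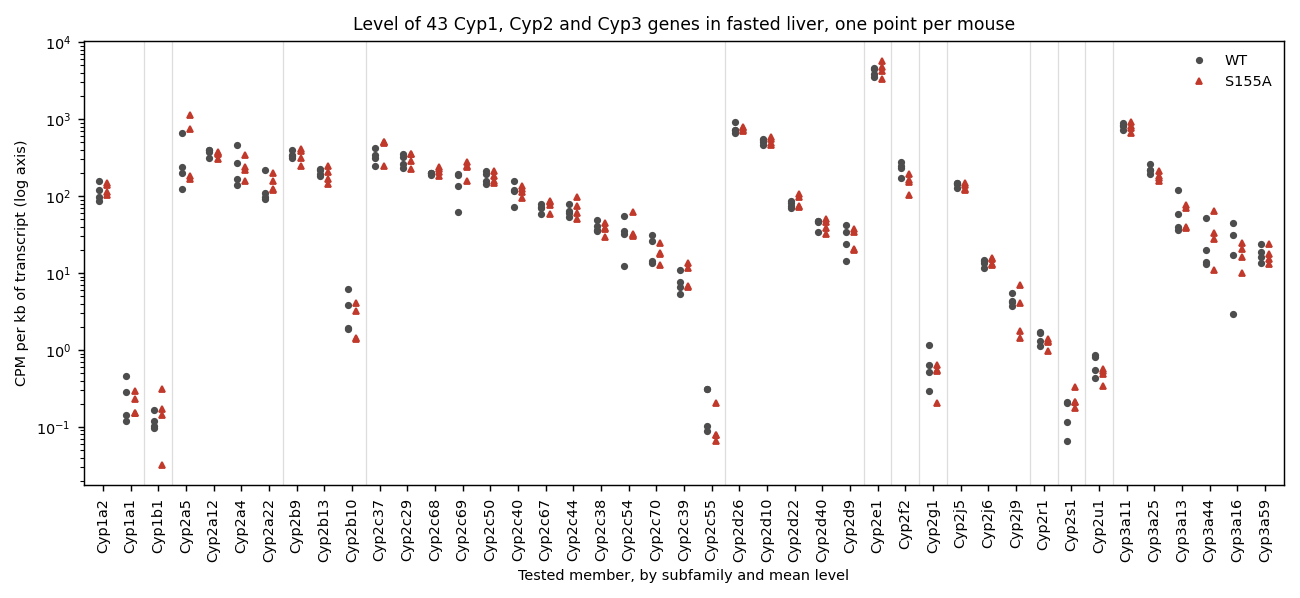
CPM per kilobase of transcript (log axis) of the 43 tested genes, ordered by subfamily and then by mean level, with one point per mouse (WT circles, S155A triangles). Cyp2e1 lies highest at a mean of 4314 CPM per kb, and the points of the genotypes overlap for every gene.

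Cyp2e1 was at 8307, 8449, 6392 and 6969 CPM in WT 1 to 4 and at 6098, 8763, 10460 and 7819 CPM in S155A 1 to 4. It alone made up 36.1% to 43.5% of the summed CPM of the 58 genes in a library. The highest and the lowest library were both S155A mice, and the groups overlapped (log2 fold change 0.14, 95% interval -0.25 to 0.52, edgeR).

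At the other end, 9 of the 58 genes had no count in any library: Cyp2b19, Cyp2b23, Cyp2c66, Cyp2j7, Cyp2j11, Cyp2j12, Cyp2j13, Cyp2t4 and Cyp2w1. A count of 0 allows up to 3 counts, or 0.055 to 0.0755 CPM in a library, for counting error only. Another 6 genes had counts too few to be tested: Cyp2c65, Cyp2d11, Cyp2d12, Cyp2d34, Cyp2j8 and Cyp3a57. Of these, Cyp2d11 stood at 0.791 CPM in WT 1 and at 0.169 to 0.272 CPM in the other 7 libraries. Cyp1a1, the inducible target of AHR, was close to the limit at 0.317 to 1.22 CPM, while its neighbour Cyp1a2, which is expressed in liver without an inducer, was at 169.7 to 304.9 CPM, a level per kilobase 523 times higher.

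The comparison of S155A with WT asks whether loss of this phosphorylation site was accompanied by other levels of the drug-metabolizing enzymes. Of the 43 tested genes, 0 passed an adjusted p of 0.05 in edgeR's quasi-likelihood test with Benjamini-Hochberg adjustment, as did 0 of all 14629 genes (0%), and DESeq2, which called 6 genes in all, called 0 of the 43. At an unadjusted p under 0.05 there were 2 of 43, Cyp2f2 and Cyp3a25, both lower in S155A (4.65%, against 3.4% of all genes). Over all genes, 1.98% were lower and 1.42% higher in S155A at this p. In no tested gene did the 4 S155A libraries lie wholly above or below the 4 WT libraries, while 2.27% of all genes showed this (0.923% above and 1.35% below). The log2 fold change was positive for 19 genes and negative for 24, with a median of -0.02, against -0.01 over all genes tested.

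**Figure D2:**
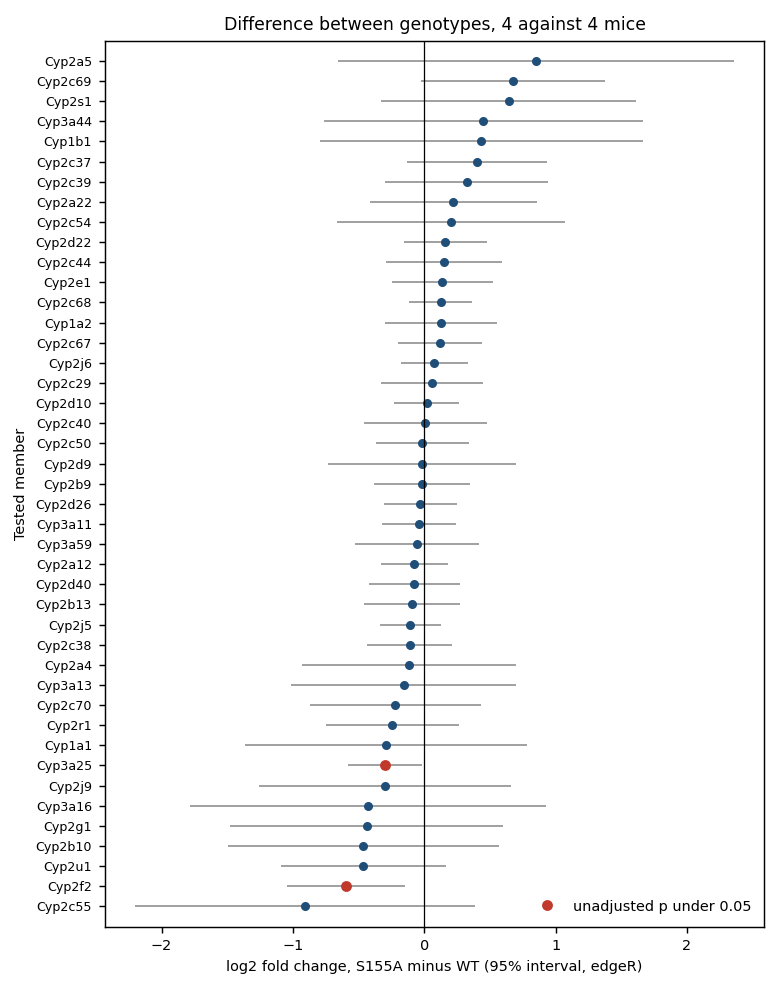
The log2 fold change of S155A minus WT with its 95% interval (edgeR) for each of the 43 tested genes, ordered by size, from 4 mice against 4. Cyp2f2 and Cyp3a25, in red, are at unadjusted p under 0.05, and the points run from -0.91 for Cyp2c55 to 0.85 for Cyp2a5.

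The precision differed widely between genes. For 28 of the 43 genes the 95% interval of the log2 fold change lay within -1 and 1, so that a 2-fold difference in either direction was outside it. Among the narrowest intervals were those of Cyp2j5, an arachidonic acid epoxygenase of liver and kidney (-0.11, interval -0.34 to 0.12), Cyp2c68 (0.13, -0.11 to 0.37), Cyp2d10 (0.02, -0.23 to 0.26) and Cyp2a12 (-0.08, -0.33 to 0.18). Cyp3a11 was at 1979, 1895, 2076 and 1689 CPM in WT 1 to 4 and at 1811, 2163, 1552 and 1904 CPM in S155A 1 to 4, a difference of -0.04 (interval -0.32 to 0.24). At the wide end, the interval of Cyp3a16 ran from -1.78 to 0.93 and that of Cyp2a5 from -0.66 to 2.36.

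Cyp2f2, which oxidises naphthalene and is a gene of periportal hepatocytes, was at 322, 461.2, 510.6 and 437.7 CPM in WT 1 to 4 and at 305.9, 361.8, 190.3 and 287.9 CPM in S155A 1 to 4. S155A 3 was the lowest library, and the groups overlapped only through WT 1, which lay below S155A 2. The mean was 432.9 ± 79.9 CPM in WT and 286.5 ± 71.4 CPM in S155A (SD, n = 4), a log2 fold change of -0.60 with a standard error of 0.20. The unadjusted p was 0.0142 and the adjusted p 0.993 by edgeR, and the exact permutation p was 0.0571 (two-sided), where 0.0286 is the smallest that 4 mice against 4 allow.

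S155A 3, the lowest library for Cyp2f2, is also the one with raised lymphocyte and plasma cell markers. Without it the log2 fold change was -0.44 (unadjusted p 0.0245), and over all 8 ways of leaving out 1 mouse it ran from -0.72 to -0.44. Within the low series the log2 fold change was -0.36 (standard error 0.27) and within the high series -0.82 (0.28), with the S155A mice below the WT mice in both. Cyp2f2 was picked by its p over these same 8 mice, so this order is no separate support. The share of all genes with the same order in both series was not counted. The 13 other periportal genes on a list, such as Sds, Hal and Pck1, had a median log2 fold change of 0.02, 7 positive and 6 negative, with 0 at unadjusted p under 0.05. In bulk tissue, fewer cells of a type and less RNA per cell cannot be told apart.

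Cyp3a25, a steroid and drug hydroxylase of the Cyp3a cluster, was at 522.5, 435.9, 386 and 436.1 CPM in WT 1 to 4 and at 421.7, 348, 314.2 and 364 CPM in S155A 1 to 4. All S155A libraries but S155A 1 lay below all WT libraries. The mean was 445.1 ± 56.7 CPM in WT and 362 ± 44.9 CPM in S155A (SD, n = 4), a log2 fold change of -0.30 with a standard error of 0.13. The unadjusted p was 0.0418 and the adjusted p 0.993 by edgeR, and the two-sided exact permutation p was 0.0571.

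The difference in Cyp3a25 was alike in size in both series, -0.29 in the low and -0.31 in the high one, with no overlap in either. How many of all genes have the same order in both series was not counted. Cyp3a25 was picked by its p over the same 8 mice, so the likeness of the series is no separate support. Its unadjusted p was under 0.05 in only 2 of the 8 fits that left out 1 mouse and was highest, at 0.121, without WT 1. Cyp3a25 shares 6% of its windows with Cyp3a59, which was at 26.4 to 47.9 CPM and had a log2 fold change of -0.06. Summed over both genes, the levels were 412.9 to 560.3 CPM in WT and 348.9 to 448.1 CPM in S155A, so the sum overlapped between the groups as Cyp3a25 did.

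Of the 6 tested Cyp3a genes, 5 had a negative and 1 a positive log2 fold change, with a median of -0.11. Cyp3a44, a female-biased gene, was at 27.4, 39.6, 25.5 and 102.1 CPM in WT 1 to 4 and at 21.7, 54.2, 124.8 and 65.6 CPM in S155A 1 to 4, so both groups spanned a 4-fold range or more. Cyp3a16, known from fetal and female liver, was at 5.12, 78.5, 29.6 and 54.3 CPM in WT 1 to 4 and at 28.3, 42.8, 17.5 and 35.7 CPM in S155A 1 to 4. It had the largest ratio of highest to lowest library of any tested gene, 15.3, which came from WT 1. Cyp3a13 is described with the interaction.

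Of the 13 tested Cyp2c genes, 9 had a positive and 4 a negative log2 fold change, with a median of 0.12 and 0 at unadjusted p under 0.05. Cyp2c69 came closest, at 103.4, 219.6, 307.9 and 321.4 CPM in WT 1 to 4 and at 261.7, 406.3, 461.6 and 392.7 CPM in S155A 1 to 4. All S155A libraries but S155A 1 lay above all WT libraries. The log2 fold change was 0.68 with a standard error of 0.32 (unadjusted p 0.0573, edgeR; two-sided exact permutation p 0.0857), and it was 0.43 without WT 1 (unadjusted p 0.0707), the lowest library. Its unadjusted p was 0.0283 by DESeq2 and 0.0424 by limma-voom, with adjusted p of 1 and 0.994. Its reads cannot be fully separated from those of its near copies Cyp2c67 and Cyp2c68, nor from Cyp2c40, with which it shares 29.5% of windows. Summed with Cyp2c67 and Cyp2c68, the level was 529.9 to 798.1 CPM in WT and 676.1 to 967.7 CPM in S155A. With Cyp2c40 added as well, it was 658.3 to 1060 CPM in WT and 847.4 to 1208 CPM in S155A.

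Cyp2c37 had the highest level of the subfamily per kilobase (382.8 CPM per kb). It was at 631.1, 565.5, 443.3 and 766.5 CPM in WT 1 to 4 and at 453, 921.1, 924.5 and 880.9 CPM in S155A 1 to 4. S155A 2, S155A 3 and S155A 4 lay close together above all WT libraries, and S155A 1 lay at the lower end of the WT range (log2 fold change 0.40, unadjusted p 0.122, edgeR). Cyp2c55 gave the most negative log2 fold change of all, -0.91, but at levels of 0.13 to 0.628 CPM and with an interval of -2.21 to 0.38.

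In the Cyp2a subfamily, Cyp2a5, the coumarin hydroxylase, had the largest positive log2 fold change of the 43, 0.85 with a standard error of 0.68 (unadjusted p 0.237, edgeR). It was at 480, 1348, 404.2 and 250.1 CPM in WT 1 to 4 and at 361.8, 1482, 2299 and 339 CPM in S155A 1 to 4. The high levels were in WT 2, S155A 2 and S155A 3, all of the high series, and the log2 fold change was 0.23 without S155A 3. The other members of the subfamily had log2 fold changes of -0.11 (Cyp2a4), 0.22 (Cyp2a22) and -0.08 (Cyp2a12).

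The 3 tested Cyp2b genes all had negative log2 fold changes, from -0.46 for Cyp2b10, the classic CAR target, to -0.02 for Cyp2b9. Cyp2b9, the most abundant of them, was at 582.2 to 736.2 CPM in WT and 455.8 to 773.8 CPM in S155A. Of the 5 tested Cyp2d genes, the subfamily of human CYP2D6, 2 were positive and 3 negative, between -0.08 and 0.16. Cyp2d26, the most abundant, was at 1107 to 1575 CPM in WT and 1176 to 1350 CPM in S155A.

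Of the 3 tested Cyp2j genes, 1 was positive and 2 negative, with Cyp2j5 the most abundant at 299.7 to 351.8 CPM in WT and 282.5 to 342.8 CPM in S155A. Cyp1a2, which oxidises caffeine, had a log2 fold change of 0.13 (interval -0.30 to 0.55). Low genes with a single tested member were Cyp1b1 (0.43, at 0.166 to 1.61 CPM), Cyp2g1 of the olfactory mucosa (-0.44, 0.389 to 2.18 CPM), the vitamin D hydroxylase Cyp2r1 (-0.24, 1.58 to 2.83 CPM), Cyp2s1 (0.64, 0.178 to 0.919 CPM) and the fatty acid hydroxylase Cyp2u1 (-0.47, 1.49 to 3.82 CPM). The unadjusted p of each was above 0.05, and the groups overlapped in all of them.

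By known regulation the genes did not separate either. Of 15 tested genes on a list of CAR and PXR targets, 6 had a positive and 9 a negative log2 fold change (median -0.02, 1 at unadjusted p under 0.05, which was Cyp3a25). Of 4 on a list of AHR targets, 3 were positive and 1 negative (median 0.28, 0 at unadjusted p under 0.05). Of 10 on a list of female-biased genes, 4 were positive and 6 negative (median -0.05, 0 at unadjusted p under 0.05), and both genes on a list of male-biased genes, Cyp2d9 and Cyp2u1, were negative. These lists hold Cyp3a41a and Cyp3a41b beside members, and the same genes can be on 2 lists.

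The female-biased genes set 1 library apart. Their summed level was 2227 CPM in WT 1 and 3126 to 4052 CPM in the other 3 WT mice, against 3015 to 3975 CPM in the S155A mice. WT 1 was the lowest of the 8 libraries for 6 of the 10 genes on the list, lay within the range of the others for 3 (Cyp2b9, Cyp2b13 and Cyp3a44) and was the highest for 1, Cyp2b10 (11.4 CPM, against 2.5 to 7.35). Among the 6 were Cyp2c40 (128.4 CPM, against 171.3 to 281.4), Cyp2c69 (103.4, against 219.6 to 461.6) and Cyp3a16 (5.12, against 17.5 to 78.5). It was the highest for Cyp2d9, a testosterone hydroxylase known to be male-biased (71.1 CPM, against 24.4 to 64.2). The gene of the transcription factor CUX2, which is known from female liver, was at 1.44 CPM in WT 1 and at 11.8 to 40.5 CPM in the other 7 libraries. Without WT 1, the log2 fold change of S155A against WT was -0.16 for Cyp2c40 in place of 0.01, -0.79 for Cyp3a16 in place of -0.43, and 0.23 for Cyp2d9 in place of -0.02. What sets WT 1 apart was not tested.

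The animal numbers allow a second question, whether the genotype difference was the same in the low and the high series, with 2 mice of each genotype in each. In the high series S155A 2 and S155A 3 had the consecutive numbers 830 and 831, and WT 2 and WT 3 had 856 and 869. Genotype in that series therefore cannot be told apart from anything that mice of neighbouring numbers share. In the test of the interaction, 0 of 43 genes passed an adjusted p of 0.05 by edgeR (0% of all genes), and 8 of 43 were at unadjusted p under 0.05 (18.6%, against 11.1% of all genes), 6 with a more positive and 2 with a more negative genotype difference in the high series (14% and 4.65%, against 6.02% and 5.07% of all genes). DESeq2 called 3 of the 43, Cyp3a13, Cyp2c39 and Cyp2j9, and 285 genes in all. The groups lay apart in opposite directions in the low and the high series in 5 genes (11.6%, against 9.49% of all genes): Cyp2c39, Cyp2d9 and Cyp3a13 with S155A lower in the low series (4.77% of all genes), Cyp1a1 and Cyp2c38 with S155A higher there (4.72%).

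In the same test, the genotype difference of some genes of other cell types and of the liver zones was unlike between the series. At unadjusted p under 0.05 for the interaction were 11.1% of all genes and 4 of 6 Kupffer cell markers (6 of 6 positive, median 1.22). Of the markers of lymphocytes and plasma cells 4 of 8 were (8 of 8 positive, median 1.91), but their sum was high in S155A 3 alone. So were 6 of 13 periportal genes (10 positive, median 0.61) and 4 of 8 hepatocyte markers (6 positive, median 0.47). Alb and Cps1 are on both of these lists. Pericentral genes leaned the other way, with 5 of 16 at this p (5 of 16 positive, median -0.18). The summed Kupffer cell markers were at 215.6, 180.9, 214.7 and 362.8 CPM in WT 1 to 4 and at 277.4, 392.6, 300.3 and 194.7 CPM in S155A 1 to 4, and both S155A mice of the high series lay above both WT mice of that series. The part of these shifts in the interaction of the P450 genes was not tested.

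Cyp3a13, a Cyp3a enzyme of liver and intestine, was at 351, 116.1, 107.5 and 171.6 CPM in WT 1 to 4 and at 114.6, 229.6, 208.9 and 117 CPM in S155A 1 to 4. In the low series both WT mice were above both S155A mice, and in the high series both were below. The log2 fold change was -1.17 (standard error 0.28) among the low-numbered mice and 0.97 (0.28) among the high-numbered ones, a difference of 2.15 with a 95% interval of 1.25 to 3.04 (unadjusted p 0.000466, adjusted p 0.21, edgeR; adjusted p 1.54e-05, DESeq2). Pooled over the series, the genotype difference was -0.16. Without WT 1, the highest library, the interaction was 1.54 (unadjusted p 3.1e-05, adjusted p 0.0936, edgeR), and over the other ways of leaving out 1 mouse it reached 2.57.

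Cyp2c39, a hydroxylase of retinoic acid, was at 19.9, 12.1, 9.76 and 13.8 CPM in WT 1 to 4 and at 12.2, 21.2, 24.3 and 12.1 CPM in S155A 1 to 4. The high libraries were WT 1, S155A 2 and S155A 3, as for Cyp3a13. The interaction was 1.53 with a standard error of 0.29 (unadjusted p 0.00054, adjusted p 0.21, edgeR; adjusted p 0.000942, DESeq2).

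Cyp2j9 differed the other way. It was at 8.85, 8.63, 11.2 and 7.5 CPM in WT 1 to 4 and at 14.4, 3.64, 2.95 and 8.33 CPM in S155A 1 to 4. S155A 2 and S155A 3 lay below all other libraries. The interaction was -2.06 with a standard error of 0.40 (unadjusted p 0.000733, adjusted p 0.21, edgeR; adjusted p 0.000716, DESeq2).

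**Figure D3:**
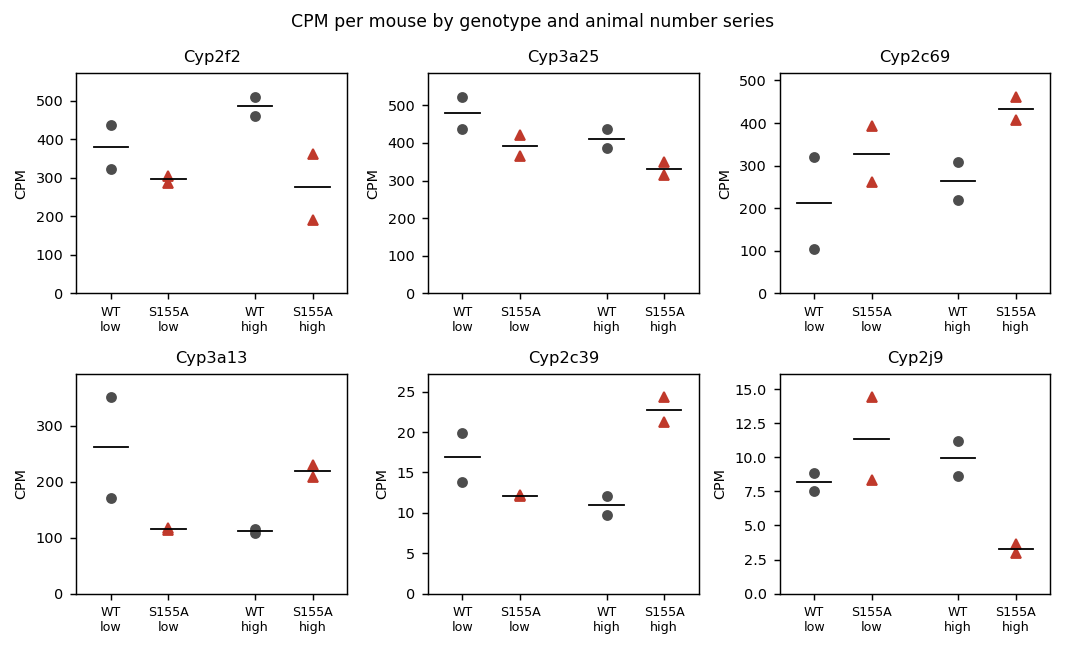
CPM of 6 genes in each mouse, by genotype and animal number series (WT circles, S155A triangles, bars the mean of 2 mice, linear axes from 0). Cyp2f2 and Cyp3a25 are lower in S155A in both series, while Cyp3a13 and Cyp2c39 change order between the series and Cyp2j9 is lowest in the 2 S155A mice of the high series.

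The other 5 genes at unadjusted p under 0.05 for the interaction were Cyp2b10 (1.87, p 0.0321), Cyp2c37 (0.94, p 0.0424), Cyp2d9 (1.29, p 0.0377), Cyp2d22 (0.51, p 0.0277) and Cyp2c38 (-0.60, p 0.0296), all with adjusted p of 0.387 or more by edgeR. Each of these lost its unadjusted p under 0.05 when a certain mouse was left out. Without WT 1 the interaction of Cyp2b10 was 0.77 (unadjusted p 0.19), that of Cyp2d9 0.84 (0.159) and that of Cyp2d22 0.41 (0.0694). Without S155A 1 the interaction of Cyp2c37 was 0.54 (unadjusted p 0.129), and without S155A 3 that of Cyp2c38 was -0.43 (0.113).

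**Figure D4:**
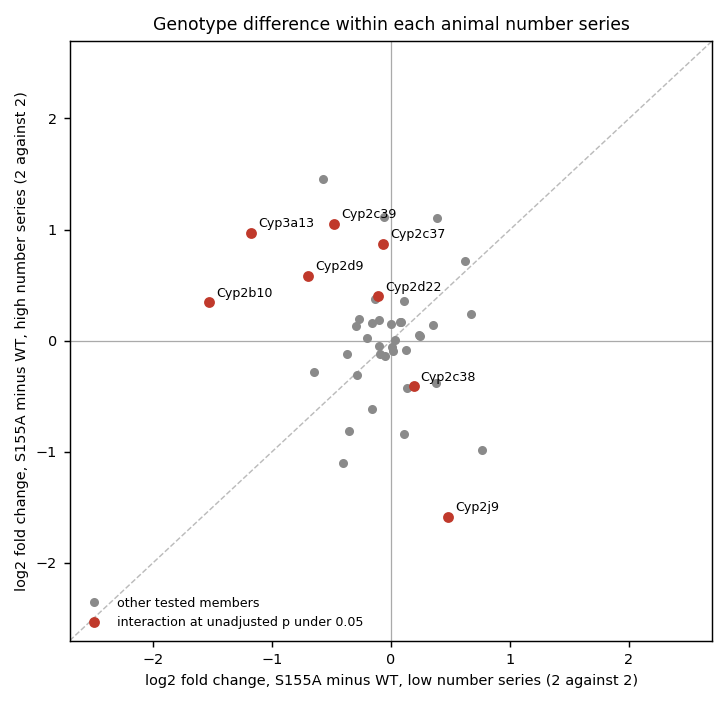
The log2 fold change of S155A minus WT within the low series (horizontal axis) and the high series (vertical axis) for the 43 tested genes, each from 2 mice against 2; the dashed line marks equal values. The 8 genes at unadjusted p under 0.05 for the interaction are in red, with Cyp3a13 at -1.17 and 0.97 and Cyp2j9 at 0.48 and -1.59.

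High and low series were also compared with each other, with genotype in the fit. By edgeR 0 of 43 genes passed an adjusted p of 0.05 (0% of all genes) and 8 were at unadjusted p under 0.05 (18.6%, against 12.8% of all genes). All 8 were higher in the high series, as were 6.64% of all genes, while 6.19% of all genes and 0 of the 43 were lower. They were Cyp1a2, Cyp2a4, Cyp2a5, Cyp2a22, Cyp2c40, Cyp2c55, Cyp2c70 and Cyp2d40. DESeq2 called 5 of the 43, Cyp1a2, Cyp2a4, Cyp2a5, Cyp2a22 and Cyp2c70, and 408 genes in all. In Cyp1a2 and Cyp2c70 the 4 mice of the high series all lay above the 4 of the low series (2 of 43 or 4.65%, against 3.53% of all genes in this direction and 6.86% in either).

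Cyp1a2 was at 169.7, 188.6, 202.1 and 218.2 CPM in the low series (WT 1, WT 4, S155A 1 and S155A 4) and at 304.9, 231.7, 289.2 and 266.7 CPM in the high series (WT 2, WT 3, S155A 2 and S155A 3). The difference was 0.49 on the log2 scale with a standard error of 0.11 (unadjusted p 0.0017, adjusted p 0.17, edgeR; adjusted p 0.00724, DESeq2). Cyp2c70, which makes muricholic acids in the mouse, was at 22.9, 24.8, 30.6 and 21.9 CPM in the low series and at 45.4, 54.4, 42.5 and 31.7 CPM in the high series, named in the same order. The difference was 0.78 with a standard error of 0.17 (unadjusted p 0.00111, adjusted p 0.159, edgeR; adjusted p 0.00348, DESeq2).

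Cyp2a5 differed most, by 1.85 on the log2 scale with a 95% interval of 0.92 to 2.78 (unadjusted p 0.00146, adjusted p 0.166, edgeR; adjusted p 0.0174, DESeq2). The mice of the low series were at 250.1 to 480 CPM, and of the high series only WT 3, at 404.2 CPM, lay in that range. Without WT 3 the difference was 2.22 and passed the threshold in edgeR (adjusted p 0.0227), and without S155A 3 it was 1.59. Cyp2a4, its near copy, was at 239.8 to 415.9 CPM in the low and 377.5 to 805.2 CPM in the high series, a difference of 0.88 (unadjusted p 0.00656, edgeR). The sum of both copies, which does not depend on how reads were divided between the pair, was 541.3 to 777.7 CPM in the low and 873.4 to 2900 CPM in the high series, without overlap.

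How the reads fell between the copies differed between mice as well. The ratio of Cyp2a5 to Cyp2a4 in CPM was 2, 1.67, 0.861 and 0.859 in WT 1 to 4 and 0.87, 3.93, 3.82 and 1.24 in S155A 1 to 4. It was highest in S155A 2 and S155A 3. The promoters of both genes are printed from 250 bases before the RefSeq start to 50 after it (GRCm38.p6, chromosome 7, forward strand). They are shown because the genes lay higher together in the high series. They are identical at 97.7% of aligned positions, a share that counts 5 differing bases and 2 gaps as unlike. Capitals mark the 5 bases that differ.
Cyp2a4, chr7:26306942-26307241: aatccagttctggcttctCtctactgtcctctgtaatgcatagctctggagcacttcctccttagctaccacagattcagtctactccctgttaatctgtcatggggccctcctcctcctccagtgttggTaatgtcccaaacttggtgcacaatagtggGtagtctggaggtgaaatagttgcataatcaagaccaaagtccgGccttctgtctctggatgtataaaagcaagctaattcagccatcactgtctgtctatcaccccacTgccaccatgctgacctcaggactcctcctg
Cyp2a5, chr7:26835089-26835388: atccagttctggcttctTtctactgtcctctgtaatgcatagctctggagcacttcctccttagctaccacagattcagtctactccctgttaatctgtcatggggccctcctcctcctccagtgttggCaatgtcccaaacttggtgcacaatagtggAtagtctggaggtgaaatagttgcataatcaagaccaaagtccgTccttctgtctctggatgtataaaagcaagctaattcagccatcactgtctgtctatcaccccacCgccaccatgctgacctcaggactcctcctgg

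Promoter entries were found for 50 of the 58 genes. The nuclear receptor motif AGGTCA, searched on both strands, was in 18 of them (36%), against 16.3% of 32851 mouse promoters of the same length. Both printed promoters hold it once, read on the reverse strand just behind the start codon. The related motif AGTTCA was in 6 (12%, against 14%), the AHR core GCGTG in 9 (18%, against 32.4%), among them Cyp1a1 and Cyp1b1 but not Cyp1a2, and the E-box CACGTG in 1 (2%, against 7.15%). The shares of the 50 genes are not from independent promoters, since close copies such as Cyp2a4 and Cyp2a5 have promoters that are nearly alike. A gene with more than 1 entry was counted if any entry held the motif, while the other share is per promoter. A match describes the letters in the window and not a bound site.

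**Figure D5:**
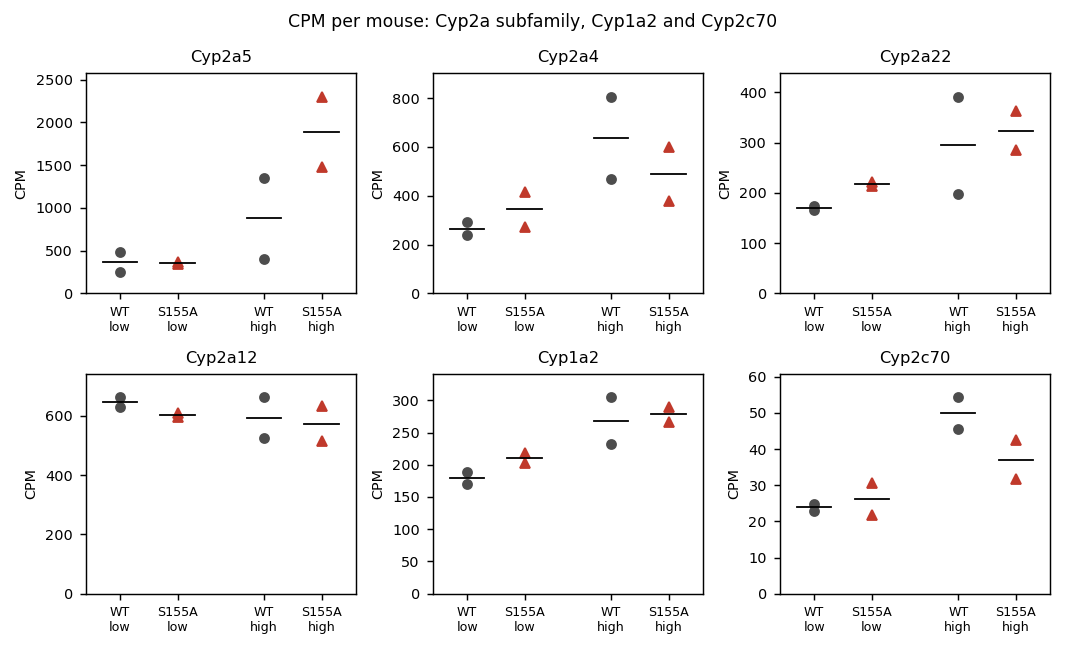
CPM of Cyp2a5, Cyp2a4, Cyp2a22, Cyp2a12, Cyp1a2 and Cyp2c70 in each mouse, by genotype and animal number series (WT circles, S155A triangles, bars the mean of 2 mice, linear axes from 0). Cyp1a2 and Cyp2c70 are higher in all 4 mice of the high series, Cyp2a5 ranges from 250.1 to 2299 CPM, and Cyp2a12 from 513.9 to 662.8 CPM.

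The genes that drive or feed these enzymes were measured in the same libraries. Of 24 regulators on a list, with AHR, CAR, PXR and their partners, 0 of 24 tested were at unadjusted p under 0.05 between the genotypes (3.4% of all genes), with a median log2 fold change of 0.05. Nr1i3, which encodes CAR, was at 657.9 to 1084 CPM in WT and 763.7 to 919.2 CPM in S155A, and Nr1i2, which encodes PXR, at 84.2 to 114.9 CPM and 91.1 to 111.8 CPM. Ahr was at 31.4 to 39.9 CPM in WT and 22.8 to 34.1 CPM in S155A (log2 fold change -0.29, unadjusted p 0.0573, edgeR).

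Between the series, 8 of the 24 regulators were at unadjusted p under 0.05 (12.8% of all genes), all with a positive difference: Ahr, Cebpa, Cebpb, Foxa3, Hnf4a, Nr0b2, Nr1h4 and Rxra. Cebpb, a factor of the acute phase and of fasting, was at 30.2 to 46.6 CPM in the low and 37.4 to 84.1 CPM in the high series. Nr1h4, the bile acid receptor, was at 101.8 to 116.4 CPM in the low and 138.5 to 147.2 CPM in the high series, without overlap, as in Cyp1a2 and Cyp2c70.

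Of 17 genes for electron donors and haem supply, 12 had a positive and 5 a negative log2 fold change between the genotypes (median 0.04), and 1 was at unadjusted p under 0.05, Hmox1, which breaks haem down (0.76, p 0.0488, adjusted p 0.993, edgeR). Por, the P450 oxidoreductase through which all of these enzymes receive electrons, was at 635.8, 783.5, 522.8 and 591 CPM in WT 1 to 4 and at 631.6, 871.6, 986.7 and 676.8 CPM in S155A 1 to 4. S155A 2 and S155A 3 were its highest libraries, and the groups overlapped (log2 fold change 0.32, unadjusted p 0.0923, edgeR). Of 16 pericentral genes on a list, the zone in which most of these P450 enzymes lie, 10 were positive and 6 negative (median 0.11), with 0 at unadjusted p under 0.05.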

How the data were processed

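Whole-liver RNA of 8 fasted female mice (4 WT, 4 S155A) was sequenced as stranded mRNA libraries in 100 bp pairs. The values are estimated counts that the authors made with salmon and deposited for each gene, length-scaled but without scaling to library size. The submitters' processing notes name bcl2fastq, STAR, SAMtools, MultiQC, DESeq2 and GRCm38; versions, annotation release and use of strand in counting are not given in the sources used here. Overlapping genes may therefore share reads.

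The estimated counts were rounded, filtered with filterByExpr (14629 of 45706 genes) and fitted with edgeR 4.0.16 (TMM, quasi-likelihood test, all 8 mice, Benjamini-Hochberg over all genes) in R 4.3.3; the series tests added animal number series (division at 500) and its interaction with genotype. p-values measure the spread between mice, which the labels call biological replicates. Alternatives were DESeq2 1.42.0, limma-voom (limma 3.58.1), other scalings, filters, a robust fit, replicate and series blocks, and leaving out each mouse. The fits were also run on simulated counts, and no result above rests on that run. CPM per kb divides CPM by the length of the APPRIS principal transcript of GENCODE M21. Coding sequences were aligned with Biopython 1.88 in place of the planned proteins; promoters are from RefSeq. No 2 libraries were copies: the closest pair, S155A 2 and S155A 3, still had a chi-square per gene of 40.2. Named genes were the most abundant member of each subfamily, those at unadjusted p under 0.05 in a comparison, those with the largest log2 fold changes, those apart in 1 library and the closest copies; Cyp1a1, Cyp3a44, Cyp2d11, Cux2 and the other genes of lists named in the text were picked after their values were seen. The members and lists (regulators, electron donors and haem supply, sex-biased, CAR and PXR, AHR, zonation, cell markers) were chosen with earlier results of these data known. Marker lists not described in the report were near 0 (adipocytes, kidney) or overlapped between the genotypes (cholangiocytes 27.1 to 85.4 CPM, pancreatic acinar cells 4.13 to 26.8 CPM, intestine 122.9 to 179.5 CPM). The highest sums of cholangiocyte and acinar cell markers were both in WT 2. In the other libraries they reached 51.2 and 6.44 CPM. The part of these cells in the P450 values of WT 2 was not tested.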

Additional observations from a re-analysis of the deposited data

Results flagged for a closer look

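In 5 of 86 groups of 4 mice, 1 mouse lay far from the other 3 of its genotype by Dixon's criterion, where chance gives about 4. Cyp2a22 was at 391 CPM in WT 2 and at 166.4 to 197.5 CPM in the other WT mice. Cyp2c37 was at 453 CPM in S155A 1 and at 880.9 to 924.5 CPM in the other S155A mice. Cyp2c54 was at 111.2 CPM in S155A 4, against 54.9 to 56.8 CPM. Cyp2c55 was at 0.414 CPM in S155A 2, against 0.13 to 0.158 CPM. Cyp2d40 was at 40.1 CPM in WT 1, against 53.3 to 55.9 CPM.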

How the results depend on the processing

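The count of called genes between the genotypes was 0 of the tested members under every alternative run. At unadjusted p under 0.05 there were 2 by edgeR, 3 with DESeq2, limma-voom, no filter on low counts or the replicate block, where Cyp2c69 was added, and 1 to 5 when 1 mouse was left out. For the interaction, the called members numbered 3 with DESeq2, 10 without a filter on low counts (15 at unadjusted p) and 0 to 2 when 1 mouse was left out (4 to 10 at unadjusted p). For high against low series they numbered 5 with DESeq2, 6 without a filter (13 at unadjusted p) and 0 to 1 when 1 mouse was left out (5 to 14 at unadjusted p). The filter keeps 14629 genes and 22439 were tested without it; the cause of the difference in calls was not tested. Scaling by library size alone moved the median interaction over all genes to -0.16.

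The sign of the genotype difference turned in 4 members with all 8 mice, among them Cyp3a16, which was at -0.43 in the main fit. With library size alone the log2 fold change was -0.0467 for Cyp2c40 and -0.02 for Cyp2d10; with limma-voom it was 0.0275 for Cyp2d9 and 0.0839 for Cyp3a16; with the replicate block it was 0.02 for Cyp2d9. When 1 mouse was left out, the log2 fold change ranged from -0.52 to 0.18 for Cyp1a1, -0.0579 to 0.79 for Cyp1b1, -0.34 to 0.32 for Cyp2a4, -0.24 to 0.0215 for Cyp2b13, -0.12 to 0.12 for Cyp2b9, -0.0338 to 0.18 for Cyp2c29, -0.16 to 0.19 for Cyp2c40, -0.043 to 0.28 for Cyp2c44, -0.13 to 0.0859 for Cyp2c50, -0.12 to 0.54 for Cyp2c54, -0.39 to 0.0283 for Cyp2c70, -0.0346 to 0.0701 for Cyp2d10, -0.094 to 0.0837 for Cyp2d26, -0.17 to 0.0253 for Cyp2d40, -0.24 to 0.23 for Cyp2d9, -0.11 to 0.0381 for Cyp3a11, -0.35 to 0.35 for Cyp3a13, -0.79 to 0.0698 for Cyp3a16, -0.0459 to 1.11 for Cyp3a44 and -0.24 to 0.11 for Cyp3a59. The ratio of Cyp2e1 to Cyp3a11 was 5.37 per kilobase and 4.2 by CPM.

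Whether the replicate numbers pair the mice is not given, and same-numbered mice were of the same animal number series. Deviations of same-numbered WT and S155A mice correlated at 0.06, 0.17, -0.11 and 0.13, and those of differently numbered mice at -0.19 to 0.14. These values do not settle a pairing. With the replicate number as a block, 0 members were called between the genotypes and 3 were at unadjusted p under 0.05. For the interaction these were 0 and 8. The block lowered the unadjusted p of Cyp2c69 between the genotypes from 0.0573 to 0.00301 (edgeR), with an adjusted p of 0.967.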
